A study of Sus scrofa with 5 samples.

Results

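The genes described here encode the proteins of the cytosolic ribosome, and they are followed through single nuclei of pig dorsal root ganglion. They were taken by symbol, as every row of the count table named RPL or RPS with a number (with an optional A, X, Y or L and a further digit), together with RPLP0, RPLP1, RPLP2 and RPSA. The rule found 52 of 30477 rows, 29 of the large and 23 of the small subunit, and no measured value entered it. Of these, 51 had at least 1 unique molecular identifier (UMI, a tag that marks 1 captured RNA molecule) and 49 had at least 50 UMIs. In the RefSeq gene table for the build Sscrofa11.1, 82 symbols fit the same rule, and the 30 that name no row under that symbol are not analysed here as members.

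The animals were 5 male Landrace pigs, whose ganglia were taken at thoracic and lumbar level (80 mg of tissue per sample), and they form 1 group with no treatment, genotype or age named in the labels. Several isolation protocols were used, which differed in the lysis detergent (IGEPAL CA-630 or Triton X-100) and in the purification, by density gradient, by magnetic beads or by fluorescence sorting, with the beads and the sort directed at the neuronal protein NeuN. The table held 2189 nuclei and 17277376 UMIs, with 501 to 338372 UMIs per nucleus. Nothing in it tied a nucleus to a pig, so it stood as 1 pooled sample without replicates. The 95% intervals below therefore reflect the counting of UMIs alone and say nothing of variation among pigs, and no comparison was tested.

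Each barcode ended in a number from 1 to 6, called the ending below, and no barcode sequence occurred under more than 1 ending. The labels do not say what an ending stands for, be it a library, a pig or a protocol. Endings held 682, 13, 805, 75, 331 and 283 nuclei in that order, and their median depths ran from 676 UMIs (ending 2) to 12038 UMIs (ending 6). Ending 3 stood apart in its rows: 906 rows had 0 UMIs there although at least 20 were expected from the other endings, against 9 to 37 such rows in any other ending. RPL3L was the 1 member with UMIs elsewhere and none in ending 3. Over rows with UMIs both in ending 3 and elsewhere, the fold of ending 1 over ending 6 given below was 7.64 instead of 8.23. Without ending 3, the fold by mitochondrial share was 1.55 instead of 1.63. The fold between the highest and the lowest marker group was then 2.09, for NTRK2 over NTRK3, instead of 2.10 for PVALB over NTRK3. The neuronal markers of the labelled cell type were detected in every ending, with 8 of 9 listed genes present as rows. Per 1000000 nuclear-genome UMIs they summed to 12081, 13238, 6862, 5552, 4042 and 4262 UMIs in endings 1 to 6. UCHL1 was the largest part in ending 1, at 5178 there and 789 in ending 6. RBFOX3 went the other way, at 27.0 in ending 1 and 157 in ending 6. Against the other endings, 3 of the 8 were at least 1.5-fold higher in ending 1 and 1 was lower.

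Ribosomes are assembled in the nucleolus from ribosomal RNA and about equal numbers of copies of each ribosomal protein, and are then exported to the cytoplasm, where they translate messenger RNA. The messenger RNAs of these proteins are short, abundant and mostly cytoplasmic, and they share a pyrimidine-rich start that places their translation under the kinase mTOR and the binding protein LARP1. In sensory neurons, ribosomes and ribosomal protein messenger RNAs are also known from axons, where local translation takes place. In preparations of nuclei these transcripts count as a sign of how much cytoplasmic RNA came along, beside the transcripts of the mitochondrial genome.

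Ribosomal protein genes held 69104 UMIs, 0.432% of all nuclear-genome UMIs (exact binomial interval 0.429 to 0.436%). The nuclear-genome total leaves out the 13 protein-coding genes of the mitochondrial genome, whose own share differed widely between endings. It keeps 2 abundant rows with an identifier and no name in the tables used, which held 0.916 to 3.06% of it in endings other than 3 and 0 UMIs in ending 3, and whose share had a Spearman rho of 0.38 to 0.82 over nuclei with the mitochondrial share within those endings. Without these 2 rows, an alternative chosen after seeing the data, the ribosomal protein share of the table was 0.437% and the fold of ending 1 over ending 6 was 8.29. Large-subunit genes made up 0.245% and small-subunit genes 0.188% of nuclear-genome UMIs. A median nucleus held 14 ribosomal protein UMIs, and 31 nuclei held none.

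The share differed 8.23-fold between endings (interval 8.02 to 8.44 for ending 1 over ending 6). It was 1.16% in ending 1, 0.706% in ending 2, 0.383% in ending 3, 0.246% in ending 4, 0.145% in ending 5 and 0.140% in ending 6. Endings 5 and 6 were close, at 1.04-fold (0.994 to 1.08), and ending 3 stood 2.73-fold above ending 6 (2.65 to 2.81). In ending 2, a single deep nucleus held 1939 of the 4502 ribosomal protein UMIs. Without ending 1, the largest fold among the endings with at least 50 nuclei was 2.73, for ending 3 over ending 6.

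Single nuclei showed the same order. Medians per nucleus were 1.10, 0.916, 0.325, 0.240, 0.141 and 0.132% for endings 1 to 6. The lower and upper quartiles of ending 1 were 0.804 and 1.39%, and those of ending 6 were 0.0918 and 0.188%, so the central parts of these distributions did not overlap. The highest nucleus of ending 6 (0.744%) lay below the lower quartile of ending 1, while the lowest nucleus of ending 1 (0.145%) lay within the range of ending 6. Ending 4 was spread most widely for its size, with quartiles of 0.133 and 0.688%. After every nucleus was thinned to 1000 UMIs, 100.0% of 635 nuclei of ending 1 still held a ribosomal protein UMI, against 73.7% of 323 in ending 5 and 74.5% of 275 in ending 6 (99.4 and 97.9% before thinning).

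**Figure D1:**
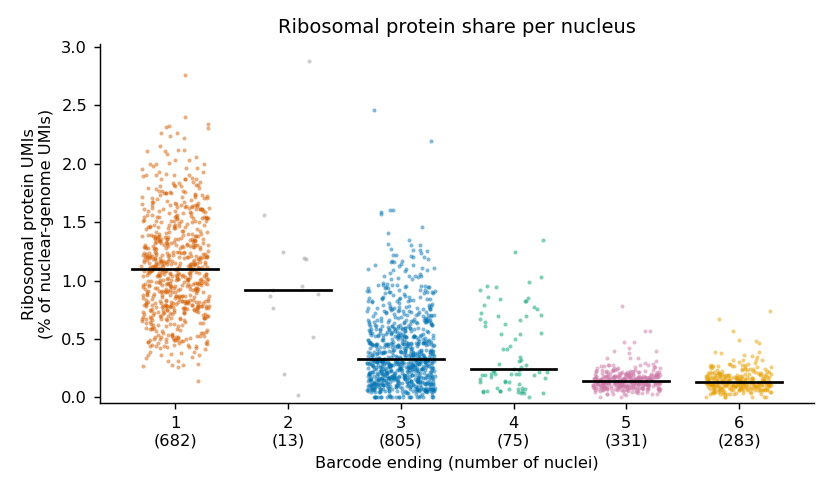
Ribosomal protein UMIs as a percentage of nuclear-genome UMIs, 1 point per nucleus, for the 6 barcode endings, with the median as a black line. The medians fall from 1.10% in ending 1 to 0.132% in ending 6.

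The balance of the subunits moved little beside this. Small-subunit over large-subunit UMIs stood at 0.761 in ending 1, 0.7504 in ending 2, 0.821 in ending 3, 0.864 in ending 4, 0.696 in ending 5 and 0.713 in ending 6. The range of this ratio was thus far narrower than that of the share itself.

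Among single genes, levels over the table ran from 5.69 to 189.6 UMIs per 1000000 nuclear-genome UMIs (CPM) for the 49 genes with at least 50 UMIs, with a median of 83.3 CPM. Values in CPM are not divided by transcript length, but libraries of 3' ends count each molecule once. The genes with the most UMIs included RPL7A (3031), RPS15 (3021), RPS2 (2611), RPL21 (2570), RPL15 (2138), RPL28 (2111), RPL10 (2106), RPS12 (1946) and RPL23 (1946), and the top 10 held 34.1% of the ribosomal protein UMIs. RPS15 was detected in the largest share of nuclei, 48.3%, and the median gene in 31.2%.

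In the large subunit, RPL7A, the most abundant member, stood at 598, 481, 110.4, 92.2, 35.6 and 31.8 CPM in endings 1 to 6. RPL15, a core protein of the subunit, stood at 391, 301.0, 93.7, 68.5, 30.7 and 34.9 CPM. RPL10, added late in assembly near the catalytic centre and encoded on the X chromosome, stood at 382, 179, 97.1, 70.3, 42.6 and 41.6 CPM. Each of these genes was highest in ending 1, followed by ending 2, and lowest in endings 5 and 6. RPL7A was 18.8-fold higher in ending 1 than in ending 6 (15.98 to 22.29), and RPL10 was 9.19-fold higher (7.92 to 10.7). RPL7A overlaps MED22 in the annotation, and reads shared by overlapping genes may be split between them.

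In the small subunit, RPS15, near the decoding site, stood at 514, 298, 215, 111.0, 44.6 and 35.7 CPM in endings 1 to 6. RPS2, at the channel through which messenger RNA enters, stood at 494, 317, 85.1, 101.3, 46.7 and 45.7 CPM. Both were lowest in endings 5 and 6, but ending 4 was above ending 3 for RPS2 and below it for RPS15. RPS15 was 14.4-fold higher in ending 1 than in ending 6 (12.3 to 16.9), and RPS2 was 10.8-fold higher (9.40 to 12.5). RPS2 overlaps RNF151 and NDUFB10 in the annotation. The stalk proteins RPLP0 and RPLP2, which recruit elongation factors to the large subunit, were 8.04-fold and 5.61-fold higher in ending 1 than in ending 6.

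Set against all other endings, 47 of 49 genes were at least 1.5-fold higher in ending 1, where 25.4% of 13291 genes passed that fold, and 0 were lower (34.4% of all genes). In the other direction, 47 of 49 were at least 1.5-fold lower in ending 6 and 46 of 49 in ending 5, against 26.1 and 26.9% of all genes. In ending 4, 37 of 49 were lower (19.7% of all genes) and 0 higher (19.0%). In ending 3 the genes spread over both sides, with 4 of 49 higher and 13 of 49 lower, shares not far from the 13.2 and 26.8% of all genes. For endings 3 to 6 the other endings include ending 1, which held 38586 of the 69104 ribosomal protein UMIs. These counts therefore depend on ending 1 and do not place endings 3 to 6 against each other. Their shares were 0.383, 0.246, 0.145 and 0.140% in endings 3 to 6. The median ratio of the 49 genes was 4.79 in ending 1 and 0.230 in ending 6, where the median of all genes was 0.874 and 0.998.

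Although nearly all members shared this direction, its size varied between them. The fold of the highest over the lowest ending, among the 5 endings with at least 50 nuclei, had a median of 9.74 and ran from 2.16 to 22.0. The largest values belonged to RPL27 (22.0, interval 17.6 to 28.0), RPL29 (19.7, 15.5 to 25.2), RPL7A (18.8), RPS27A (16.8, 13.4 to 21.2) and RPL23 (15.3, 12.6 to 18.8). RPS27A is translated as a fusion with ubiquitin. RPL27 lies on chromosome 12, from 19892210 to 19894202 (Sscrofa11.1), and its level was 364, 154, 104.0, 37.0, 19.2 and 16.5 CPM in endings 1 to 6. RPL29 overlaps ACY1 in the annotation.

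At the other end, RPL38 (2.16, 1.64 to 2.88), RPL31 (2.78, 2.17 to 3.59) and RPL35 (3.65, 2.92 to 4.61) differed least. RPL38 is known in mice for its part in the translation of selected messenger RNAs. Its level was 55.1, 108.2, 62.8, 52.1, 29.1 and 29.6 CPM in endings 1 to 6, so that ending 3 and not ending 1 was the highest of the larger endings. RPL31, at the exit of the peptide tunnel, lies on chromosome 3, from 53289993 to 53295387, and stood at 128, 95.6, 80.4, 46.1, 69.6 and 66.6 CPM. RPL35, its neighbour at the tunnel exit, stood at 195, 107, 91.4, 53.4, 75.3 and 83.6 CPM. For RPL31 and RPL35 the lowest value was in ending 4, and endings 5 and 6 lay above it.

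RPS28, a small protein at the exit of the messenger RNA, was the other gene that did not peak in ending 1. It stood at 59.0, 138, 87.7, 61.2, 13.5 and 11.6 CPM in endings 1 to 6 and was 7.55-fold higher in ending 3 than in ending 6 (5.65 to 10.2). RPS28 overlaps NDUFA7 in the annotation. The other 47 of the 49 genes were highest in ending 1 among the larger endings.

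**Figure D2:**
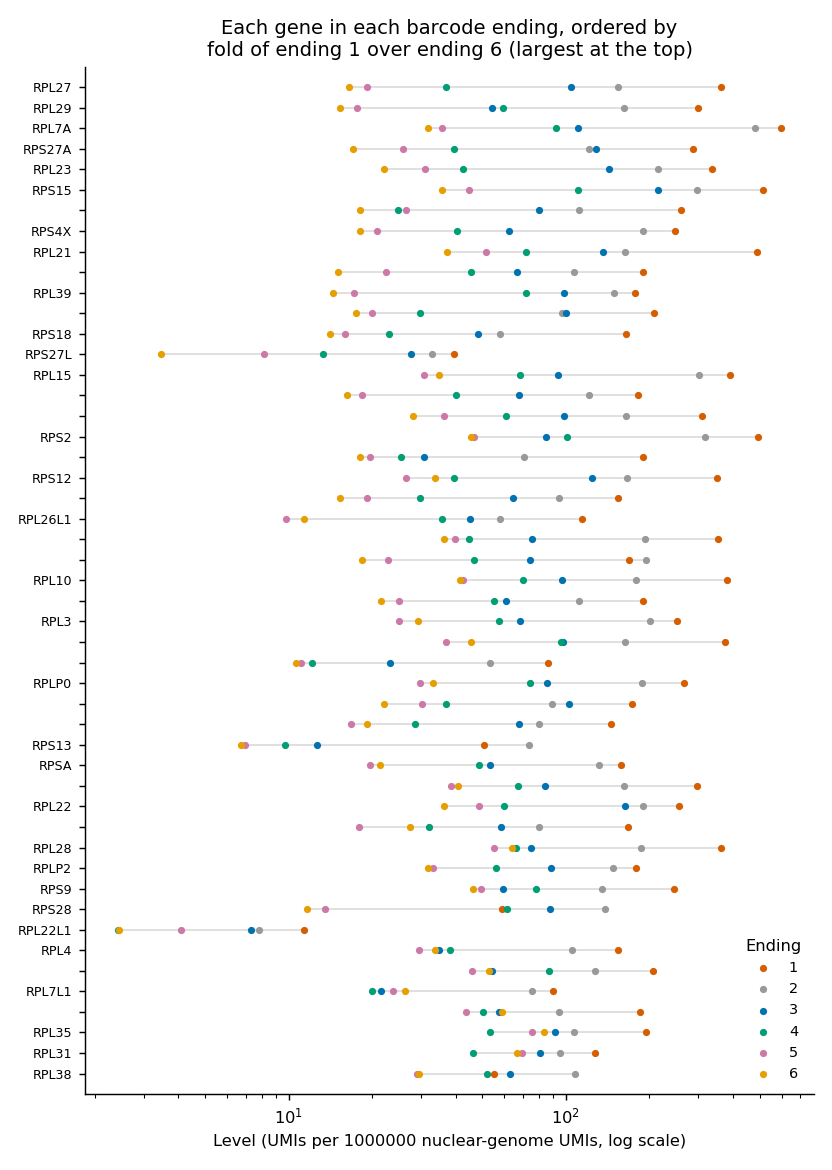
Level of each of the 49 ribosomal protein genes with at least 50 UMIs (x axis, CPM of nuclear-genome UMIs, log scale) in the 6 barcode endings (colours), ordered by the fold of ending 1 over ending 6, with names for genes the text describes. RPL27 at the top spans 16.5 to 364 CPM, while RPL38 at the bottom spans 29.1 to 108.2 CPM.

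Paralogs, second gene copies that replace or resemble a ribosomal protein in some tissues, were low. RPL26L1 had 693 UMIs, RPL7L1 634, RPS27L 295 and RPL22L1 91, while RPL3L, a copy of RPL3 known from striated muscle, had 38 and RPL10L, known from testis, had 0. A count of 0 allows RPL10L a level of up to 0.188 CPM over the table. RPL22 outnumbered its paralog RPL22L1 with 1867 UMIs, and RPL3 outnumbered RPL3L with 1477 UMIs. RPL3L overlaps NDUFB10 in the annotation, and its 38 UMIs are uncertain for that reason. RPL26 names no row, so reads of RPL26 and RPL26L1 cannot be told apart here. RPL10A, a canonical large-subunit gene, had only 35 UMIs. RPS4X, the X-linked form of RPS4, had 1344 UMIs and was 13.7-fold higher in ending 1 than in ending 6 (10.98 to 17.21).

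The members lie on 16 chromosomes, with at most 8 on 1 of them (chromosome 6) and 3 on X. Their annotated spans run from 940 to 17466 bases with a median of 4091. Over the 49 genes, the fold of ending 1 over ending 6 had a Spearman rho of -0.20 with the annotated span and 0.34 with the UMI total, as a description, since all genes share the same libraries. The 6 of them that overlap another protein-coding gene had a median fold of 11.3, against 8.603 for the others. Those 6 were RPL7A, RPS2, RPL29, RPS25, RPS18 and RPS28.

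Other transcripts moved with the endings. A list of abundant cytoplasmic messenger RNAs (18 of 25 present as rows, such as UCHL1, STMN2 and TMSB10) summed to 38396, 34797, 12002, 8125, 4142 and 4617 CPM in endings 1 to 6, 8.32-fold higher in ending 1 than in ending 6. Long genes rich in intronic RNA (10 of 14 listed, such as RBFOX1 and DLG2) went the other way between endings 1 and 6. They summed to 6340, 7137, 16767, 13771, 12575 and 13046 CPM in endings 1 to 6, highest in ending 3. Markers of satellite glia (6 of 6 as rows, none at 0 in any ending) summed to 2401, 1206, 535, 1207, 263 and 246 CPM. APOE made up most of the sum in ending 1, at 2090 CPM there and 96.6 CPM in ending 6. Against the other endings, 4 of the 6 were at least 1.5-fold higher in ending 1 and 1 was lower. SLC1A3 stood at 24.9 CPM in ending 1 and at 42.4 CPM in ending 6. Schwann cell markers (8 of 9) ran from 1282 to 2048 CPM, with PRX at 0 in ending 2 and at 44.2 CPM in ending 3, and red cell markers (3 of 4) stood at 161 CPM in ending 1 and at 15.95 to 36.06 CPM elsewhere. The part of cytoplasmic RNA and of glial and red cell RNA in the fold was not tested. Nor was that of the isolation protocol, of the pig or of the ending's depth. No label tied an ending to a protocol or to a pig, so their parts cannot be told apart here.

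Relations to the mitochondrial share, the percentage of a nucleus's UMIs from the mitochondrial genome, were described next. Endings did not order alike by both measures: median mitochondrial shares were 4.08, 2.99, 18.5, 1.71, 0.114 and 0.0605% for endings 1 to 6, so ending 3 had the highest mitochondrial share but only 0.383% ribosomal protein UMIs. Nuclei of ending 3 above 15% mitochondrial UMIs held 0.520% ribosomal protein UMIs (437 nuclei), still less than the 0.996% in nuclei of ending 1 between 1 and 5% (437 nuclei). At 0.1 to 1%, ending 1 nuclei held 0.403% (11 nuclei), against 0.106% in ending 3, 0.147% in ending 4, 0.163% in ending 5 and 0.179% in ending 6.

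Within each ending, however, nuclei above the median mitochondrial share held more ribosomal protein transcripts. The values above and below the median were 1.33 and 0.922% in ending 1 (1.44-fold, 1.41 to 1.47), 0.532 and 0.248% in ending 3 (2.14-fold, 2.06 to 2.23), and 0.455 and 0.109% in ending 4 (4.19-fold, 3.91 to 4.50). They were 0.164 and 0.128% in ending 5 (1.27-fold, 1.19 to 1.36) and 0.173 and 0.103% in ending 6 (1.69-fold, 1.60 to 1.77). The direction was the same in 5 of 5 endings, and the fold over all of them was 1.63 (1.61 to 1.64).

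Spearman's rho of both shares over nuclei was 0.42 in ending 1, 0.64 in ending 3, 0.78 in ending 4, 0.24 in ending 5 and 0.47 in ending 6. These values are descriptions, since nuclei are not replicates and both shares rest on the same depth. Depth itself had a rho with the ribosomal protein share of -0.00041, 0.18, -0.27, -0.08 and -0.09 in the same endings. Nuclei above the median mitochondrial share were deeper in endings 1, 3, 4 and 6 (medians of 3418 against 2051, 4832 against 2903, 12429 against 8074 and 12577 against 12038 UMIs) and shallower in ending 5 (5223 against 6588 UMIs). After thinning to 1000 UMIs the fold over all endings was 1.45.

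**Figure D3:**
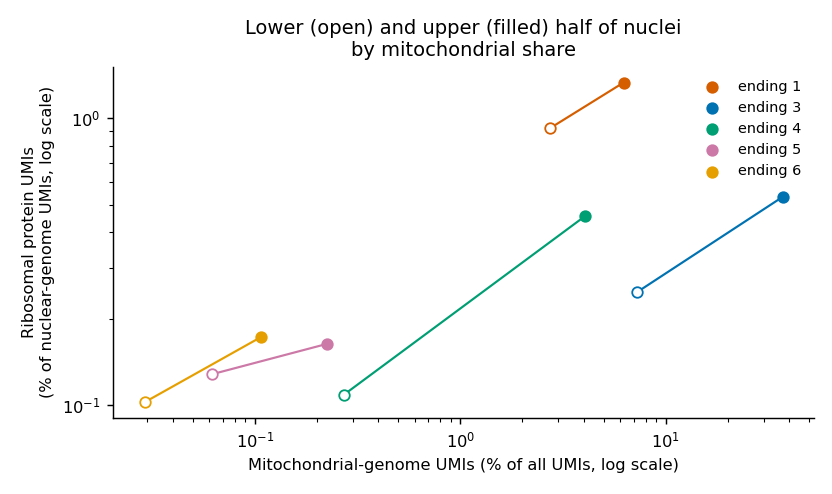
Ribosomal protein share (y axis, % of nuclear-genome UMIs, log scale) against mitochondrial share (x axis, % of all UMIs, log scale) for nuclei below (open circles) and above (filled circles) their ending's median mitochondrial share. Every line rises, from 1.27-fold in ending 5 to 4.19-fold in ending 4, but the lines do not fall on 1 curve.

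Gene by gene, 38 of 49 members were at least 1.5-fold higher above the median mitochondrial share, as a ratio combined over endings, where 12.0% of 13198 genes passed that fold. None was 1.5-fold lower (6.87% of all genes), and all 49 ratios were above 1. Their median was 1.65, against 1.02 for all genes. Of the 49, 38 were higher above the median in all 5 endings, 10 in 4 endings and RPL22L1 in 3.

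RPS28 had the highest ratio, 2.33 (1.98 to 2.74), followed by RPL39 at 1.95 (1.72 to 2.20), a small protein that lines the peptide tunnel. RPS28 stood at 128 against 51.6 CPM in ending 3 and at 141 against 10.0 CPM in ending 4, but at 11.97 against 15.005 CPM in ending 5. RPL39 stood at 202 against 143 CPM in ending 1 and at 20.2 against 7.90 CPM in ending 6. The lowest ratios were those of RPL22L1 (1.05, 0.688 to 1.59) and RPL7L1 (1.28, 1.08 to 1.51), followed by RPS27L (1.31, 1.03 to 1.67). These are paralogs, but the paralog RPL26L1 had a ratio of 1.94 (1.64 to 2.28), among the highest. The interval of RPL22L1 included 1 and overlapped those of most members.

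A gene's fold between endings and its ratio by mitochondrial share ranked the members differently. Over 48 genes, the fold of ending 1 over ending 6 and the ratio by mitochondrial share in endings 3, 4 and 5, which hold no nucleus of the former, had a Spearman rho of 0.29. RPL38 and RPL35, with small folds between endings, had ratios of 1.90 and 1.76 by mitochondrial share, near those of RPL27 (1.79) and RPL29 (1.74).

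**Figure D4:**
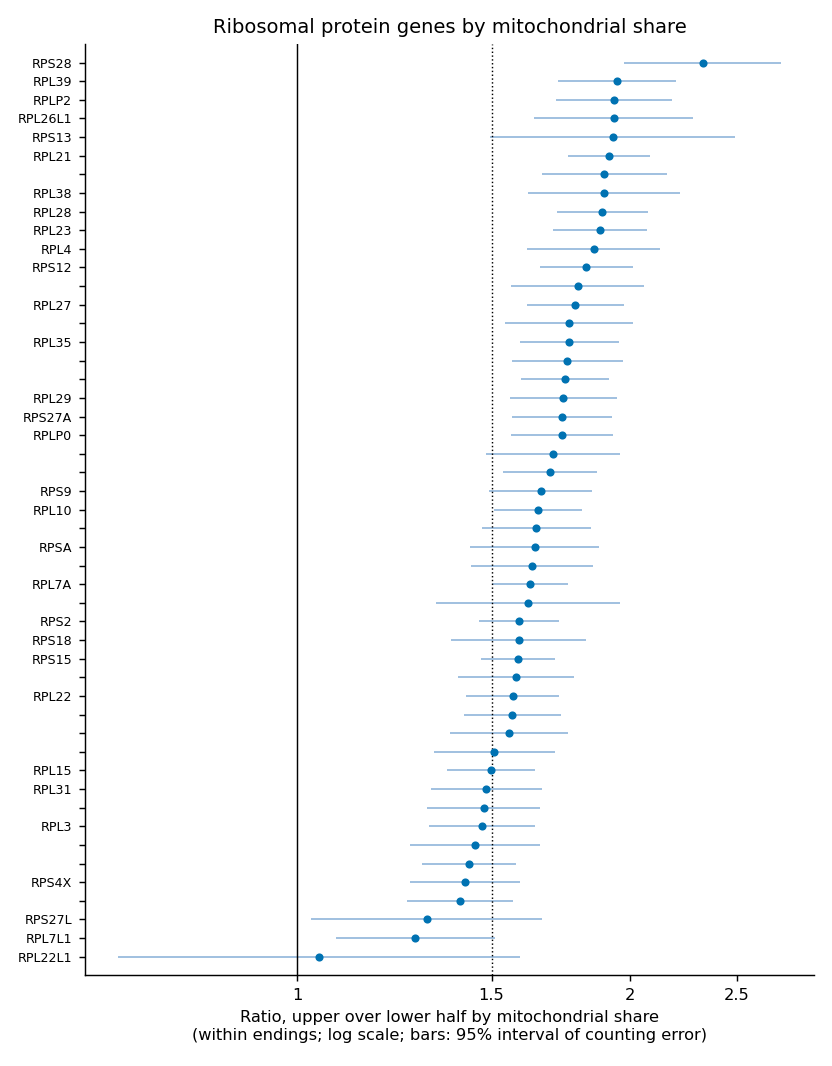
Ratio of each gene's level above over below the median mitochondrial share, combined over 5 endings (x axis, log scale), with 95% intervals of counting error and names for genes the text describes. The dotted line marks 1.5-fold, and the genes run from RPL22L1 at 1.05 to RPS28 at 2.33.

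Other genes of translation followed in part. Among elongation factors and other messenger RNAs with the same pyrimidine-rich start (18 of 22 as rows), 7 of 18 were at least 1.5-fold higher above the median and 0 lower, with a median ratio of 1.42. BTF3 (1.89) and the neuronal elongation factor EEF1A2 (1.85) were highest there, while PABPC1 (0.997) and VIM (1.05) were lowest. Of 62 mitochondrial ribosomal protein genes, which serve the organelle's own ribosome but are nuclear-encoded, 27 were higher and 0 lower, with a median of 1.46. MRPL36 (2.67, 1.66 to 4.28) and MRPL40 (2.39) led them, and MRPS22 stood at 0.822 and MRPS14 at 0.906.

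Initiation factors moved less, with 9 of 45 higher, 0 lower and a median of 1.19. EIF6 (1.961), which keeps large subunits from joining too early, and EIF1B (1.959) were highest, while the stress kinase gene EIF2AK3 (0.752) and the scaffold EIF4G3 (0.880) were below 1. Ribosome biogenesis factors had 5 of 25 higher and 0 lower, with a median of 1.17, NOP10 at 2.09 and POLR1B at 0.831 (0.588 to 1.17) and UTP4 at 0.901 (0.688 to 1.18). A list of genes around mTOR and the ribosomal S6 kinases had 16 of 17 as rows, with none named RPS6KB1. In it, 0 of 16 were higher and 1 lower, with a median of 0.937. The ribosomal S6 kinase RPS6KA6 stood at 0.635 and RPTOR at 0.698, while RHEB (1.28) and LARP1 (1.27) were above 1.

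Of the abundant cytoplasmic messenger RNAs, 17 of 18 were at least 1.5-fold higher above the median mitochondrial share, with a median of 1.64 and S100A10 (2.11) and TMSB10 (2.05) at the top. GAP43 (1.45) was lowest. Of the long genes, 3 of 10 were lower and 0 higher (median 0.738), with DLG2 at 0.612, MACROD2 at 0.646 and PTPRD at 1.13. Satellite glia markers (6 of 6 as rows) summed to 1030 CPM above and 719 CPM below the median, without regard to ending. Of the 5 with at least 50 UMIs, 1 was at least 1.5-fold higher and 1 lower, with a median ratio of 1.36. The part of carried-over cytoplasmic or glial RNA in the ribosomal protein ratios was not tested.

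Nuclei were finally grouped by marker genes, to compare kinds of sensory neuron. A nucleus went to whichever of TRPM8, IL31RA, GFRA2, ADCYAP1, KIT, NTRK2, NTRK3 and PVALB stood highest relative to that marker's mean, with at least 2 UMIs. No ribosomal protein gene entered this, and 1416 nuclei were grouped, while 773 shallow ones (median 1927 UMIs) were not. TRPM8 is the cold channel, IL31RA an itch cytokine receptor, GFRA2 and KIT receptors for growth factors, ADCYAP1 the peptide PACAP, NTRK2 and NTRK3 neurotrophin receptors of touch and muscle afferents, and PVALB the calcium buffer parvalbumin. Groups were unevenly spread over endings: 61 of 113 PVALB nuclei came from ending 1 and 62 of 130 NTRK3 nuclei from ending 3. Raw shares, from 0.153% for NTRK3 to 1.01% for PVALB, therefore mix group with ending. Each group's ribosomal protein UMIs were divided by the number expected if every nucleus had the share of all grouped nuclei of its ending.

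On this standardised scale the NTRK3 group stood lowest, at 0.590 (0.568 to 0.614, 130 nuclei), and the NTRK2 and PVALB groups highest, both at 1.24 (1.21 to 1.27 for each, 210 and 113 nuclei). Between them lay GFRA2 at 1.10 (1.08 to 1.13, 173 nuclei), TRPM8 at 1.02 (0.984 to 1.05, 135), KIT at 0.958 (0.934 to 0.982, 186), IL31RA at 0.925 (0.908 to 0.942, 270) and ADCYAP1 at 0.877 (0.857 to 0.896, 199). NTRK2 and PVALB did not differ beyond counting error, and the intervals of KIT and IL31RA overlapped. A single nucleus held 19.6% of the ribosomal protein UMIs of GFRA2, 17.8% of TRPM8, 16.3% of ADCYAP1 and 10.9% of NTRK3. In the remaining groups the top nucleus held from 5.83% (NTRK2) to 9.95% (IL31RA). The intervals take no account of this weight.

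These averages hid differences between endings. In NTRK3 nuclei the share was 0.187% in ending 3 against 0.398% in the other grouped nuclei there, 0.106 against 0.334% in ending 4 (14 nuclei with a median of 44162 UMIs) and 0.0815 against 0.147% in ending 6. In endings 1 and 5 it was near that of the others, at 1.13 against 1.15% (14 nuclei) and 0.137 against 0.147% (10 nuclei). PVALB nuclei held 0.587 against 0.205% in ending 4, 0.641 against 0.361% in ending 3 and 1.28 against 1.12% in ending 1. NTRK2 nuclei held 0.548 against 0.214% in ending 4 and 1.45 against 1.10% in ending 1, but 0.390 against 0.371% in ending 3 and 0.137 against 0.139% in ending 6. Without ending 1 the standardised value of PVALB was 2.44, and the fold of PVALB over NTRK3 rose from 2.10 to 4.04.

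The mitochondrial share moved with the groups. In ending 3 its median was 1.26% in NTRK3 nuclei and 26.8% in PVALB nuclei, and in ending 4 it was 0.0240 and 2.52%. When nuclei were standardised within ending and within 4 ranks of mitochondrial share, an alternative chosen after seeing the data, NTRK3 stood at 0.931, PVALB at 1.09, NTRK2 at 1.19 and ADCYAP1 at 0.886. The fold between the highest and the lowest group was then 1.35, for NTRK2 over ADCYAP1, instead of 2.10 for PVALB over NTRK3.

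**Figure D5:**
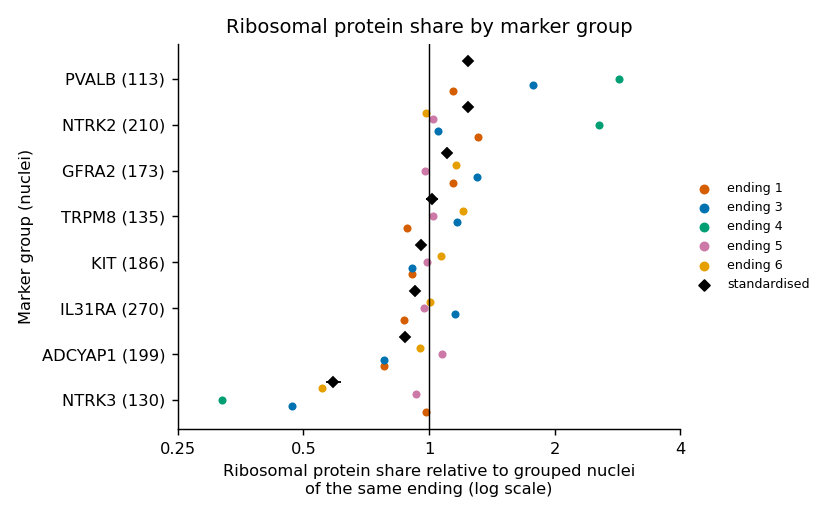
Ribosomal protein share of each marker group relative to the other grouped nuclei of the same ending (coloured points, at least 10 nuclei) and standardised over endings (black diamonds, 95% interval of counting error), on a log scale. NTRK3 nuclei lie lowest at 0.590, with the widest gap in ending 4, and PVALB and NTRK2 nuclei highest at 1.24.

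By gene, 38 of 49 members were at least 1.5-fold lower in NTRK3 nuclei than in the other grouped nuclei of the same endings, where 28.3% of all genes passed that fold, and 0 were higher (17.0%). RPL29 (0.307, 0.213 to 0.440) and RPS9 (0.360, 0.269 to 0.483) were lowest, while RPL7L1 (0.998, 0.722 to 1.38) stood near 1. Abundant cytoplasmic messenger RNAs were lower in 17 of 18 in this group and higher in 0 (median 0.472). Satellite glia markers were lower in 4 of 6 and higher in 1 (median 0.597 within endings). Neuronal markers were lower in 5 of 8 and higher in 1 (median 0.582). The part of these in the ribosomal protein ratios was not tested.

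In PVALB nuclei 7 of 49 members were higher and 1 lower, against 17.2 and 28.3% of all genes, and in NTRK2 nuclei 5 of 49 were higher and 0 lower, against 11.3 and 12.2%. The counts of higher members were thus near the share of all genes, although 43 and 48 of the 49 ratios were above 1, with medians of 1.22 and 1.28. RPL21 had the highest ratio in both, 2.09 in PVALB nuclei (1.88 to 2.33) and 1.79 in NTRK2 nuclei (1.60 to 1.99). In PVALB nuclei RPS28 followed at 1.92 (1.52 to 2.42), and RPL22L1 (0.474) and RPS13 (0.768) were lowest with 3 and 23 UMIs. In NTRK2 nuclei RPL22L1 followed at 1.67 (0.907 to 3.07), and RPL31 (0.967) and RPS27L (1.01) were lowest. Satellite glia markers had a median ratio within endings of 1.72 in PVALB nuclei (3 of 6 past the fold) and 1.61 in NTRK2 nuclei (3 of 5). Summed without regard to ending they stood at 2336 against 748 CPM and 1305 against 723 CPM, values that mix group with ending. Of 18 abundant cytoplasmic messenger RNAs, 5 were higher and 2 lower in PVALB nuclei (median 1.35), and 4 higher and 1 lower in NTRK2 nuclei (1.32). Of 10 long genes, 0 were higher and 8 lower in PVALB nuclei (0.522), and 0 higher and 4 lower in NTRK2 nuclei (0.740). Of 8 neuronal markers, 3 were higher and 5 lower in PVALB nuclei (0.517), and 1 higher and 0 lower in NTRK2 nuclei (1.18). The part of these in the ribosomal protein ratios of both groups was not tested.

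The 5 other groups had few members past the fold. In GFRA2 nuclei 1 of 49 was higher (7.61% of all genes) and 0 lower (16.4%): RPL31, at 1.74 (1.51 to 2.00), above RPS13 at 1.38 (1.02 to 1.85), with RPS18 (0.832) and RPL21 (0.847) lowest. In KIT nuclei 0 were higher (7.74%) and 1 lower (12.4%): RPL21, at 0.644 (0.548 to 0.757), with RPSA next at 0.810, and RPS27L (1.45, 1.02 to 2.05) and RPL22L1 (1.21, 0.617 to 2.39) highest. RPL21 thus stood above 1.5 in NTRK2 and PVALB nuclei and under 0.65 in KIT nuclei. In TRPM8 nuclei 1 was higher (6.35%) and 2 lower (14.1%), with RPL26L1 at 1.69 (1.27 to 2.25) and RPL22L1 at 1.49, and RPS13 (0.417, 0.195 to 0.891) and RPL4 (0.635) lowest.

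In IL31RA nuclei 0 were higher (7.69%) and 1 lower (15.5%), with RPL26L1 at 0.586 (0.459 to 0.747), RPS15 at 1.08 and RPS18 at 1.09. In ADCYAP1 nuclei 0 were higher (7.07%) and 3 lower (17.1%), with RPL26L1 at 0.607 (0.464 to 0.794) and RPLP0 at 0.639 (0.539 to 0.758) lowest and RPL35 (1.15) highest. RPL26L1 thus stood above 1.5 in TRPM8 nuclei and near 0.6 in IL31RA and ADCYAP1 nuclei. These ratios are descriptions of single genes chosen as the extremes of 49, and they have no replicate check.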

How the data were processed

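Libraries of transcript 3' ends were made on the Chromium droplet platform, per the labels' protocols. The submitters' processing notes list Cell Ranger 6.0.1, Seurat and the build Sscrofa11.1 but assign them no role. Intron counting, strand use and the filter on nuclei (not given in the sources used here) may change these values. The authors deposited 1 table of raw UMI counts, 30477 rows by 2189 nuclei.

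UMIs were summed over nuclei and divided by nuclear-genome UMIs (15984071 in all). Shares carry exact Clopper-Pearson intervals, CPM ratios exact conditional binomial intervals, ratios over several endings the Mantel-Haenszel rate ratio with a Greenland-Robins interval, and standardised shares an exact Poisson interval with the expected number held fixed, all at 95%. Ratios needed 50 UMIs over both sides, and a fold of 1.5 counted as past the fold, for all genes alike. Endings under 50 nuclei (ending 2) entered no fold between endings and no split by mitochondrial share. Nuclei exactly at a median (4) were left out of that split. No nucleus was removed and no doublet caller was run. The ratio was tested on simulated data first. Python 3.11.15, numpy 2.4.6, pandas 2.3.3 and scipy 1.17.1 were used.

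Genes were named by a rule: the 10 with most UMIs, the 5 largest and 5 smallest folds between endings, the 2 highest and 2 lowest ratios in each other comparison, paralogs, members under 50 UMIs, and the 2 extremes of each list. RPL38 and RPS28 levels and overlaps with other genes were added after values were seen. Some genes that the rule picks are not reported here. Members and lists were chosen with earlier results of these data known. Alternatives covered the denominator, depth, deep nuclei, single endings, paralogs, the most abundant genes, marker thresholds and UMI minimums.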

Additional observations from a re-analysis of the deposited data

Results flagged for a closer look

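Outside the rows described above, 6 rows carry an Ensembl identifier only and receive a ribosomal protein symbol from a table of gene names. They held 10397 UMIs together, above the limit that a count of 0 allows, and the comparisons did not use them. RPLP1 had 2923 UMIs, RPS24 2637, RPL23A 1466, RPS7 1447, RPL14 1149 and RPS29 775. The fold of ending 1 over ending 6 was 10.2 for RPLP1, 18.4 for RPL14, 9.96 for RPS29, 7.80 for RPL23A and 7.04 for RPS7. For RPS24 it was 1.80, close to the 1.86 of RPL38, the smallest of the 49 genes above by the same measure, with 246, 121, 178, 155, 113 and 137 CPM in endings 1 to 6.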

How the results depend on the processing

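The ribosomal protein share of the table was 0.432% and moved beyond its counting interval under each alternative: 0.39997% of all UMIs, 0.566% as a mean over nuclei, 0.466% without nuclei above 50000 UMIs, 0.543% after thinning to 1000 UMIs, 0.421% without paralogs, 0.349% without the 5 most abundant genes, 0.497% with the identifier rows, 0.471% over rows with UMIs both in ending 3 and elsewhere, 0.437% without the 2 unnamed rows, and 0.241 to 0.562% with 1 ending left out. The identifier rows, the shared rows, the unnamed rows and the ranks of mitochondrial share within groups were chosen after seeing the data. The fold between endings was 7.84 with all UMIs, 7.44 as a mean over nuclei, 7.64 after thinning, 7.44 without the 5 most abundant genes, 7.81 with identifier rows, 7.64 over shared rows, and 2.73 to 8.23 with 1 ending left out. These were for ending 1 over ending 6, but for ending 1 over ending 5 after thinning and without ending 6. Without ending 1 the pair was ending 3 over ending 6.

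The fold by mitochondrial share was 1.49 with all UMIs, 1.496 as a mean over nuclei, 1.60 without deep nuclei, 1.45 after thinning, 2.22 between the outer ranks of 4, and 1.55 to 2.01 with 1 ending left out. The fold between marker groups was 1.83 as a mean over nuclei, 1.87 without deep nuclei, 1.74 after thinning, 1.94 and 2.31 with at least 1 and 3 UMIs of the marker, 6.58 with no standardisation, 1.90 with the marker mean per ending, 1.35 within ranks of mitochondrial share, and 1.74 to 4.04 with 1 ending left out. The pair was PVALB over NTRK3 in part of these only. It was NTRK2 over NTRK3 without deep nuclei and without ending 2, 3, 4, 5 or 6. Within ranks of mitochondrial share it was NTRK2 over ADCYAP1. The IL31RA group crossed 1 as a mean over nuclei (1.00492) and with no standardisation (1.00443), as did GFRA2 (0.989) and ADCYAP1 (1.04) with no standardisation, and KIT at 3 UMIs of the marker (1.0085) and without ending 1, with 0.94046 to 1.0001 as 1 ending at a time was left out. TRPM8, whose interval of 0.984 to 1.05 includes 1, lay on either side (0.680 with no standardisation, 0.873 with the marker mean per ending, 0.948 without deep nuclei, 0.959 without ending 6, 1.12 without ending 1). The cause of these moves was not tested. NTRK3 stood below 1 under all 20 planned and added alternatives for its group (0.371 to 0.931). Counts of genes past the fold stayed within 1.5 times, the lowest being 26 instead of 38 by mitochondrial share with all UMIs as denominator. Leaving out single pigs was not possible because barcodes carry no pig. No paired analysis was possible because there was 1 group. Levels near 10 CPM rest on few UMIs in the smaller endings, which limits RPL22L1, RPS13 and RPS27L.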
